A study of Mus musculus with 28 samples.

Results

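The right ventricles of mice that had lost plakophilin-2 (Pkp2) in their heart muscle cells were compared with those of control littermates by bulk RNA sequencing. The comparison comprises every right ventricular (RV) library from buffer-treated animals, 4 from conditional knockouts (cKO, animals 177, 180, 257 and 264) and 3 from controls (WT, animals 636, 637 and 647), 7 of the 28 libraries in the series and 1 library per animal. All animals were of a C57BL6 background and carried Pkp2 fl/fl alleles. The cKO animals also carried αMyHC-Cre-ER(T2), a tamoxifen-inducible recombinase driven by a cardiomyocyte promoter, and the WT animals were Cre-negative. Tamoxifen was given to adult cKO animals to start the deletion, and whether the WT littermates received it too is not stated in the sources used here. Both groups were injected with HBSS, the vehicle control of the other animals' gene therapy, and neither was given the human PKP2 transgene. The series title speaks of about 10 weeks. The paper gives a single time of sacrifice, in weeks after induction, for the mice of this experiment. The time of collection of the buffer-treated cKO animals is not stated separately in the sources used here. Because untreated animals of this model die within weeks of the deletion, the cKO and WT groups may have been collected at different times. Such a difference cannot be told apart from the loss of Pkp2 in any value given here. By their Xist and Y-linked transcripts, cKO 177 and 180 and WT 647 were female and the other 4 animals male. Throughout, values are given in the order WT 636, 637 and 647 and cKO 177, 180, 257 and 264.

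Plakophilin-2 is an armadillo protein of the desmosome, the junction that ties the intermediate filaments of neighbouring cardiomyocytes together at the intercalated disc. There it binds desmoplakin and the desmosomal cadherins, and it lies beside the gap junctions and sodium channels through which the impulse passes from cell to cell. Mutations of PKP2 are the most frequent known cause of arrhythmogenic right ventricular cardiomyopathy, an inherited disease in which RV muscle is lost and replaced by fibrous and fatty tissue.

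The libraries held 23773518 to 30779568 counted fragments in WT RV and 19364737 to 23726830 in cKO RV, and the shallowest was cKO 177. Levels below are counts per 1000000 counted fragments after TMM scaling (CPM), a difference is the log2 fold change of cKO over WT with its standard error, and a call means that edgeR's quasi-likelihood test gave an adjusted p below 0.05. Means in CPM are given ± SD over the 3 WT and the 4 cKO libraries. Of 17307 genes tested, 6468 were called (37.4%), of which 3427 were higher in cKO (19.8% of genes tested) and 3041 lower (17.6%). The values of the 2 groups did not overlap for 6990 genes (40.4%). Higher calls were 52.98% of all calls, against 71.8% when log2(TPM + 1) of protein-coding nuclear genes was tested and 94.4% when log2(TPM + 1) was taken as deposited, where the median gene stood at 0.54. Several genes below had a negative difference in CPM and a positive one in deposited TPM, and each such TPM value given for a called gene lies under that median. Transcripts of the mitochondrial genome took 35.7 to 39.6% of the counts in WT RV and 15.003 to 23.2% in cKO RV, a difference of -18.8 percentage points (exact permutation test over the 7 libraries, two-sided p = 0.0286, the smallest this design allows). All 7 libraries held the ventricular light chain Myl2 at 3585 CPM or more in WT and 986 CPM or more in cKO, and of 9 markers of thymus, lung and liver the 6 thymus and lung genes did not pass the filter on low counts. The 3 liver genes passed and were not called, and the summed level of the list was 93.8 CPM in cKO 264 and 17.3 CPM in WT 647 against 0.246 to 2.58 CPM in the other 5 libraries. Without cKO 264 5821 genes were called, and without WT 647 5133, and the part of such tissue in the results was not tested otherwise. The counts of list members given below stand beside the shares of 19.8% higher and 17.6% lower calls. In bulk tissue, fewer cells of a type and less RNA per cell cannot be told apart, which applies to every muscle gene described here.

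Pkp2 itself (chromosome 16, 16031144 to 16090586, plus strand in GRCm39) stood at 114, 110.3 and 122 CPM in WT and at 30.2, 38.9, 30.9 and 37.7 CPM in cKO, a log2 difference of -1.75 ± 0.13 (adjusted p = 6.69e-06). The transcripts that remained were not assigned to a cell type or to the deleted part of the gene. The human transgene had 0 counts in all 7 libraries. The 7 other desmosomal genes tested held 4 that fell and none that rose, with a median of -0.49, beside 17.6% lower calls over all genes. The desmosomal cadherins fell most. Desmoglein-2, Dsg2, stood at 116, 183 and 158 CPM in WT and at 42.7, 99.0, 54.2 and 58.7 CPM in cKO (-1.26 ± 0.25), and its partner desmocollin-2, Dsc2, at 51.3, 66.1 and 73.2 CPM in WT and at 19.2, 37.0, 27.2 and 27.7 CPM in cKO (-1.20 ± 0.20), so that no cKO library reached the lowest WT library in either gene. Plakoglobin, Jup, which links the cadherins to desmoplakin, fell from 228 ± 18.1 to 163 ± 25.2 CPM (-0.49 ± 0.12). Desmoplakin, Dsp, the anchor of intermediate filaments, fell by 0.57 ± 0.17, and its call was lost when WT 637 was left out (-0.46, adjusted p = 0.107). The values of Jup and Dsp pointed the other way in deposited TPM (0.38 and 0.32). Pkp4 stood at 133 ± 10.0 CPM in WT and 134 ± 54.2 CPM in cKO (0.01) and Perp, a further desmosomal protein, at 94.0 ± 22.9 CPM in WT and 78.8 ± 23.3 CPM in cKO (-0.26), and neither was called. The remaining gene tested had the highest difference of the list, 2.46, and was not called either.

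**Figure D1:**
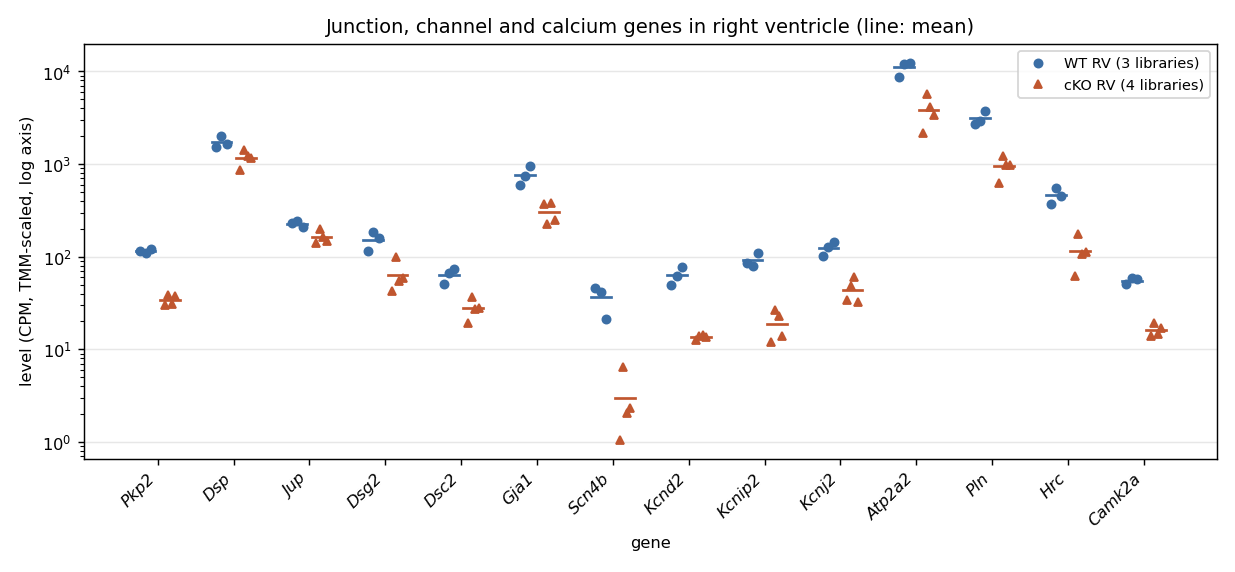
Levels (CPM, log axis) of Pkp2 and of desmosomal, gap junction, sodium, potassium and calcium handling genes (horizontal axis) in each of the 3 WT and 4 cKO RV libraries, 1 point per library with the group mean as a line. Pkp2 sits between 110.3 and 122.0 CPM in WT and between 30.2 and 38.9 CPM in cKO, and the points of Dsg2, Dsc2 and Scn4b do not overlap between the groups.

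Of 21 genes of the area composita, the mixed junction that surrounds the desmosome, 5 rose and 6 fell (median -0.01), shares close to the 19.8% higher and 17.6% lower calls over all genes. N-cadherin, Cdh2, and alpha-T-catenin, Ctnna3, which bind the actin filaments of adjoining cells to the disc, fell by 0.72 ± 0.14 and 0.97 ± 0.17, the former with a value of 0.14 in deposited TPM. Fhl2, a LIM protein of the sarcomere and disc, fell from 705 ± 117 to 337 ± 66.4 CPM. The risers were Tmem43 (1.11 ± 0.13) and Lmna (1.02 ± 0.13), which encode proteins of the nuclear envelope and are themselves cardiomyopathy genes, together with Parva (0.71 ± 0.11), Ctnnd1 (0.40 ± 0.10) and Ilk (0.31 ± 0.10), which serve adhesion in many cell types. Beta-catenin, Ctnnb1, stood at 182 ± 10.4 CPM in WT and 180.4 ± 12.1 CPM in cKO and vinculin, Vcl, at 193 ± 8.61 CPM in WT and 217 ± 32.6 CPM in cKO, and neither was called.

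Connexin 43, Gja1, the main ventricular gap junction protein, was lower in every cKO library than in any WT library. It stood at 591, 747 and 957 CPM in WT and at 366, 227, 379 and 250.0 CPM in cKO (-1.32 ± 0.21, adjusted p = 0.000502). Scn4b, a beta subunit of the cardiac sodium channel, fell further than any other channel subunit of the lists, from 46.0, 41.7 and 21.4 CPM to 1.06, 6.50, 2.07 and 2.36 CPM (-3.62 ± 0.49). Fgf13, which modulates sodium channel gating, fell by 1.12 ± 0.22, and ankyrin-B, Ank2, a membrane scaffold, by 0.75 ± 0.12, the latter with the opposite sign in deposited TPM (0.02). Gjc1, connexin 45, rose by 0.46 ± 0.15. In all, 5 of the 14 genes of this list fell and 2 rose.

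Of 22 potassium and pacemaker channel genes, 11 fell and none rose (median -0.86). For the transient outward current, which repolarizes the mouse ventricle, both the pore and its accessory subunit fell. Kcnd2 stood at 49.1, 62.2 and 78.1 CPM in WT and at 12.54, 14.0, 14.4 and 13.4 CPM in cKO (-2.21 ± 0.15), and Kcnip2 at 86.1, 78.8 and 109 CPM in WT and at 11.9, 26.8, 22.8 and 13.9 CPM in cKO (-2.28 ± 0.27). The groups were well apart in both genes. Kcnv2, a silent subunit, fell to 1.09, 2.41, 0.971 and 2.20 CPM from 13.6, 18.6 and 15.4 CPM (-3.25 ± 0.39). Kcnj2, the inward rectifier that holds the resting potential, fell by 1.51 ± 0.20, and Abcc9, the sulfonylurea receptor of the ATP-sensitive channel, by 1.42 ± 0.17. Kcnq1 fell by 0.96 ± 0.22, while Kcnh2, the other main delayed rectifier of human ventricle, stood at 59.2 ± 5.21 CPM in WT and 44.0 ± 20.7 CPM in cKO (-0.43 ± 0.28, adjusted p = 0.265).

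Calcium handling genes fell from the channel of entry to the pump of uptake. 14 of 24 fell and 2 rose (median -0.63). The L-type channel pore Cacna1c fell by 0.66 ± 0.15 (0.13 in deposited TPM), and its subunits Cacna2d1 and Cacnb2 by 1.07 ± 0.14 and 1.14 ± 0.14. The release channel Ryr2 stood at 4155, 4987 and 5014 CPM in WT and at 1472, 3250.4, 3289 and 2642 CPM in cKO (-0.83 ± 0.24). The call of Ryr2 was lost in 2 of the 7 fits that left out 1 library. The calcium pump of the sarcoplasmic reticulum, Atp2a2, stood at 8769, 11945 and 12396 CPM in WT and at 2181, 5660.1, 4126 and 3403 CPM in cKO (-1.52 ± 0.28), and its inhibitor phospholamban, Pln, at 2693, 2938 and 3759.6 CPM in WT and at 622, 1221, 985 and 974 CPM in cKO (-1.72 ± 0.22). In both genes the highest cKO library, 180, was below the lowest WT library. Hrc, the histidine-rich calcium binding protein of the same store, fell by 2.00 ± 0.28, and Camk2a by 1.78 ± 0.13. Casq2, calsequestrin (-0.38 ± 0.24, adjusted p = 0.245), and Slc8a1, the sodium-calcium exchanger (0.09 ± 0.15), were not called. The risers were Fkbp1b, which binds the release channel and was near the filter in WT (0.455 ± 0.184 CPM in WT and 1.41 ± 0.6995 CPM in cKO), and sarcolipin, Sln, given with the atrial genes below. Receptors of the sympathetic system went with them, since Adrb1, the main cardiac beta receptor, fell by 1.38 ± 0.26, and the alpha receptors Adra1a and Adra1b by 1.90 ± 0.25 and 1.43 ± 0.30. Grk5, a kinase that desensitizes such receptors, rose from 50.2 ± 0.919 to 99.7 ± 15.7 CPM (0.99 ± 0.12), and the protein kinase A subunit Prkar1a rose by 0.54 ± 0.13, against 9 of 18 adrenergic genes that fell.

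Transcripts of sarcomere proteins fell more often than they rose. Of the thick filament list 8 of 18 genes fell and 4 rose, of the thin filament list 8 of 13 fell and 1 rose, and of the Z-disc list 7 of 17 fell and 2 rose, with medians of -0.68, -0.75 and -0.49. Myh6, the alpha myosin heavy chain of adult mouse ventricle, stood at 12889, 16938 and 17525 CPM in WT and at 3250.2, 10487, 6601 and 6099 CPM in cKO (-1.26 ± 0.32). Myh7, the beta heavy chain of the fetal and the stressed mouse heart, went the other way, from 259, 198 and 189.7 CPM to 3726, 4294, 3593 and 2682 CPM (4.05 ± 0.22, adjusted p = 2.42e-06). The lowest cKO library of Myh7 was 264, still far above every WT library. The microRNA host Myh7b fell by 2.75 ± 0.20. Cardiac troponin I, Tnni3, fell from 2589 ± 694 to 745 ± 262 CPM (-1.80 ± 0.28). Mylk4, a myosin light chain kinase, fell to 17.3, 38.9, 9.65 and 16.9 CPM from 209, 178 and 222 CPM. Lmod3, which nucleates actin at the pointed ends of thin filaments in skeletal muscle, fell by 2.84 ± 0.28, and Ky, kyphoscoliosis peptidase, by 2.79 ± 0.25. The chaperone of myosin folding Unc45b fell by 1.30 ± 0.17. Among stretch-responsive genes, Ankrd1 rose by 1.37 ± 0.28 and Fhl1 by 0.74 ± 0.17, whereas Csrp3 fell by 0.94 ± 0.18. Tpm2, the beta tropomyosin abundant in slow skeletal and smooth muscle, rose by 1.04 ± 0.25, and Acta1, skeletal actin, stood at 129, 38.1 and 12.8 CPM in WT and at 17.2, 13.7, 45.003 and 14.7 CPM in cKO and was not called (adjusted p = 0.187).

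The 10 nuclear genes with the highest mean TPM in WT RV all coded for muscle or energy proteins, and all 10 fell. In CPM they were Myl2 (-1.65), Mb, myoglobin (-1.04), Actc1 (-0.67), Myh6 (-1.26), Tnni3 (-1.80), Tpm1 (-0.88), Atp2a2 (-1.52), Fabp3, which carries fatty acids in the cytosol (-1.41), Tnnt2 (-0.75) and Myl3 (-1.41). The falls of Actc1, Tpm1 and Tnnt2 turned to small positive values in deposited TPM (0.15, 0.05 and 0.03), and the call of Tnnt2 was lost in 6 of the 7 fits that left out 1 library, all but that without cKO 180, where its range was -1.05 to -0.60.

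Natriuretic peptide transcripts rose. Nppa, which encodes atrial natriuretic peptide, stood at 17.3, 30.8 and 23.8 CPM in WT and at 304, 928, 1069 and 185 CPM in cKO (4.70 ± 0.81, adjusted p = 0.000884), and Nppb, brain natriuretic peptide, at 63.5, 30.05 and 30.6 CPM in WT and at 106, 140.3, 199.99 and 103 CPM in cKO (1.73 ± 0.34). The lowest cKO value of Nppa was several times the highest WT value. Of the proteases that process the peptides, Furin rose by 0.74 ± 0.19 and Corin fell by 0.67 ± 0.21, which turned to 0.18 in deposited TPM. Mme, neprilysin, which degrades the peptides, fell from 16.7 ± 4.00 to 5.48 ± 2.90 CPM (-1.61 ± 0.38). The clearance receptor Npr3 rose by 0.88 ± 0.25.

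Several genes that mark atrial muscle were near zero in WT RV and high in some of the cKO libraries. Myl7, the atrial regulatory light chain, stood at 0.640, 0 and 0 CPM in WT and at 2.19, 87.9, 47.3 and 0.0386 CPM in cKO, and Myl4, the atrial essential light chain, at 1.08, 0.769 and 1.07 CPM in WT and at 7.62, 186, 165 and 1.78 CPM in cKO. Sarcolipin, Sln, the atrial regulator of the calcium pump, had 0 counts in all 3 WT libraries and stood at 0.512, 28.6, 20.2 and 0 CPM in cKO. The call of Sln was lost in 5 of the 7 fits that left out 1 library. Libraries 180 and 257 were high in all 3 genes, 177 was intermediate and 264 was at or close to the WT values. Mybphl (0.957, 23.5, 16.3 and 0.0772 CPM in cKO) and Bmp10, a growth factor of right atrial muscle (29.5, 56.2, 425 and 0.232 CPM in cKO, at most 0.317 CPM in WT), had the same lowest library. By contrast, Dkk3, a secreted Wnt modulator enriched in atria, was raised in all 4 libraries (1.62, 1.63 and 2.59 CPM in WT and 65.5, 181, 145 and 65.2 CPM in cKO, 5.86 ± 0.46), as was Pam, which amidates peptides in atrial granules (1.27 ± 0.23), and Nr2f2, which specifies atrial muscle (1.07 ± 0.14). Kcnj3 and Kcnj5, the subunits of the acetylcholine-activated atrial channel, went the opposite way and fell by 1.53 ± 0.31 and 1.21 ± 0.22. Of 15 atrial markers tested, 10 rose and 2 fell. Without libraries 180 and 257 the difference of Myl4 was 2.26, that of Myl7 2.39 and that of Nppa 3.34, and the calls of Myl7 and Mybphl were lost (adjusted p = 0.386 and 0.579). Whether atrial tissue entered the dissection of those hearts was not tested. Without the same 2 libraries 6296 genes were called, and 5623 calls were shared with the full comparison in the same direction.

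**Figure D2:**
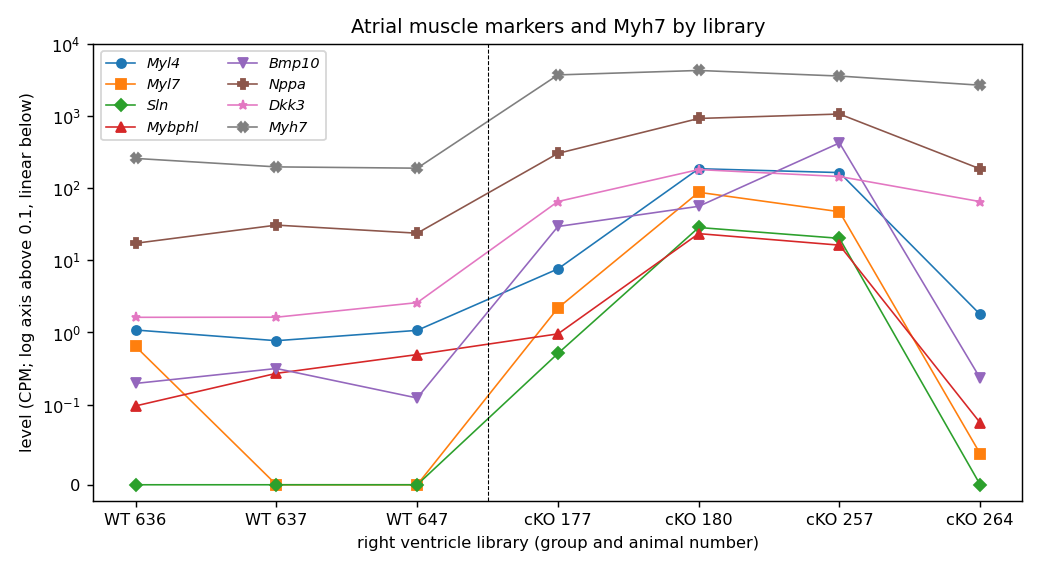
Levels of 7 atrial marker genes and of Myh7 (vertical axis, CPM, logarithmic above 0.1 and linear below) in each RV library (horizontal axis), with lines that join the points of 1 gene only to make it easier to follow. Myl7, Sln and Mybphl are high in cKO 180 and 257 and close to the WT libraries in cKO 264, while Dkk3 and Myh7 are raised in all 4 cKO libraries.

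Among cardiac transcription factors, 5 of 17 fell and 1 rose. Irx4, which maintains ventricular identity, stood at 18.99, 27.3 and 23.9 CPM in WT and at 7.72, 10.4, 10.5 and 7.96 CPM in cKO (-1.36 ± 0.18). Prox1, needed for sarcomere structure in heart muscle and also a lymphatic factor, fell by 1.09 ± 0.14, and the estrogen-related receptor Esrrg, an activator of oxidative genes, by 0.94 ± 0.12. Hey2, a ventricular repressor of atrial genes, fell by 0.73 ± 0.22 and Mef2a by 0.55 ± 0.10, both with small positive values in deposited TPM (0.08 and 0.33). Gata4, Nkx2-5, Tbx5 and Hand2 were measured in all libraries and not called (-0.25, -0.15, 0.03 and -0.04). Tbx20 rose by 0.50 ± 0.17, but the values of the groups overlapped and its call was lost in 4 of the 7 fits that left out 1 library.

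Transcripts of the respiratory chain and the citric acid cycle fell almost without exception. All 20 subunits of complex I that were tested fell, with differences between -1.82 and -1.07. Ndufs1, which carries iron-sulfur clusters of the electron entry arm, stood at 404, 468 and 512 CPM in WT and at 133, 247, 189.8 and 185 CPM in cKO (-1.29 ± 0.18), and the values of the groups did not overlap. Of complexes II to V, 26 of 28 genes fell and 2, Cox6a1 (0.12) and Cox8a (-0.07), were not called. Both encode isoforms found in most tissues, and the heart and muscle isoforms Cox6a2, Cox7a1 and Cox8b fell by 1.51 ± 0.27, 2.02 ± 0.30 and 1.41 ± 0.28. Of the 13 protein-coding genes of the mitochondrial genome 12 fell, mt-Co2 alone not passing (-1.84 ± 0.69, adjusted p = 0.053). The most abundant by count, mt-Co1, stood at 181346, 210529 and 206243 CPM in WT and at 44562, 83757, 66332 and 70067 CPM in cKO (-1.59 ± 0.30). Cs, citrate synthase, a common measure of mitochondrial content, fell by 1.06 ± 0.21, and 20 of 21 genes of the citric acid cycle fell with it, among them Fh1 (-1.47) and Suclg1 (-1.50).

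Fatty acid uptake and oxidation went the same way, with 23 of 29 genes lower, 6 not called and none higher (median -1.41). Cpt1b, the muscle isoform of the rate-limiting step of mitochondrial entry, stood at 444, 494 and 485 CPM in WT and at 121, 294, 204 and 193 CPM in cKO (-1.22 ± 0.22). Cpt2, which completes that entry, fell by 1.73 ± 0.19, and the enzymes of the oxidation spiral Hadh, Hadha, Hadhb and Decr1 fell by 1.74 ± 0.23, 1.64 ± 0.24, 1.76 ± 0.22 and 1.74 ± 0.24. Cd36, the fatty acid transporter, stood at 1122, 1256 and 1179.6 CPM in WT and at 414, 1082, 623 and 823 CPM in cKO and did not pass (adjusted p = 0.0518). Of 18 regulators of energy genes 10 fell and none rose. Ppargc1a, the coactivator of mitochondrial biogenesis, fell by 1.05 ± 0.21 (0.01 in deposited TPM), Ppara, a nuclear receptor for fatty acids, by 1.18 ± 0.30, Perm1 by 1.45 ± 0.23 and Mlxipl, a carbohydrate-responsive factor, by 2.13 ± 0.21. Sirt3, a mitochondrial deacetylase, stood at 11.3, 11.4 and 13.6 CPM in WT and at 3.21, 4.70, 4.82 and 4.87 CPM in cKO, with the 4 cKO libraries below all WT libraries.

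Of 21 genes of glucose transport and glycolysis, 8 fell and 4 rose, the latter a share no higher than the 19.8% of all genes. The insulin-responsive transporter Slc2a4 and the muscle hexokinase Hk2 fell by 1.66 ± 0.21 and 1.39 ± 0.15, and Pfkfb2, the cardiac regulator of glycolytic rate, by 1.27 ± 0.18. Hk1, Pfkp and Pfkfb3, isoforms found widely outside muscle, rose by 0.54 ± 0.13, 1.58 ± 0.20 and 1.29 ± 0.30, as did the lactate exporter Slc16a3 (1.85 ± 0.29). The transporter Slc2a1 stood at 15.2 ± 2.98 CPM in WT and 17.9 ± 3.13 CPM in cKO and was not called. Breakdown of branched-chain amino acids and creatine metabolism fell in 19 of 23 genes, from Dbt (-1.67) and Bckdhb (-1.64) of the branched-chain dehydrogenase to muscle creatine kinase, Ckm (-1.75). The exceptions that rose were Ckb, brain creatine kinase (0.73 ± 0.16), and Slc6a6, the taurine transporter (1.46 ± 0.20). The proportion of lower calls in each of these energy lists stood beside 17.6% over all genes tested.

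**Figure D3:**
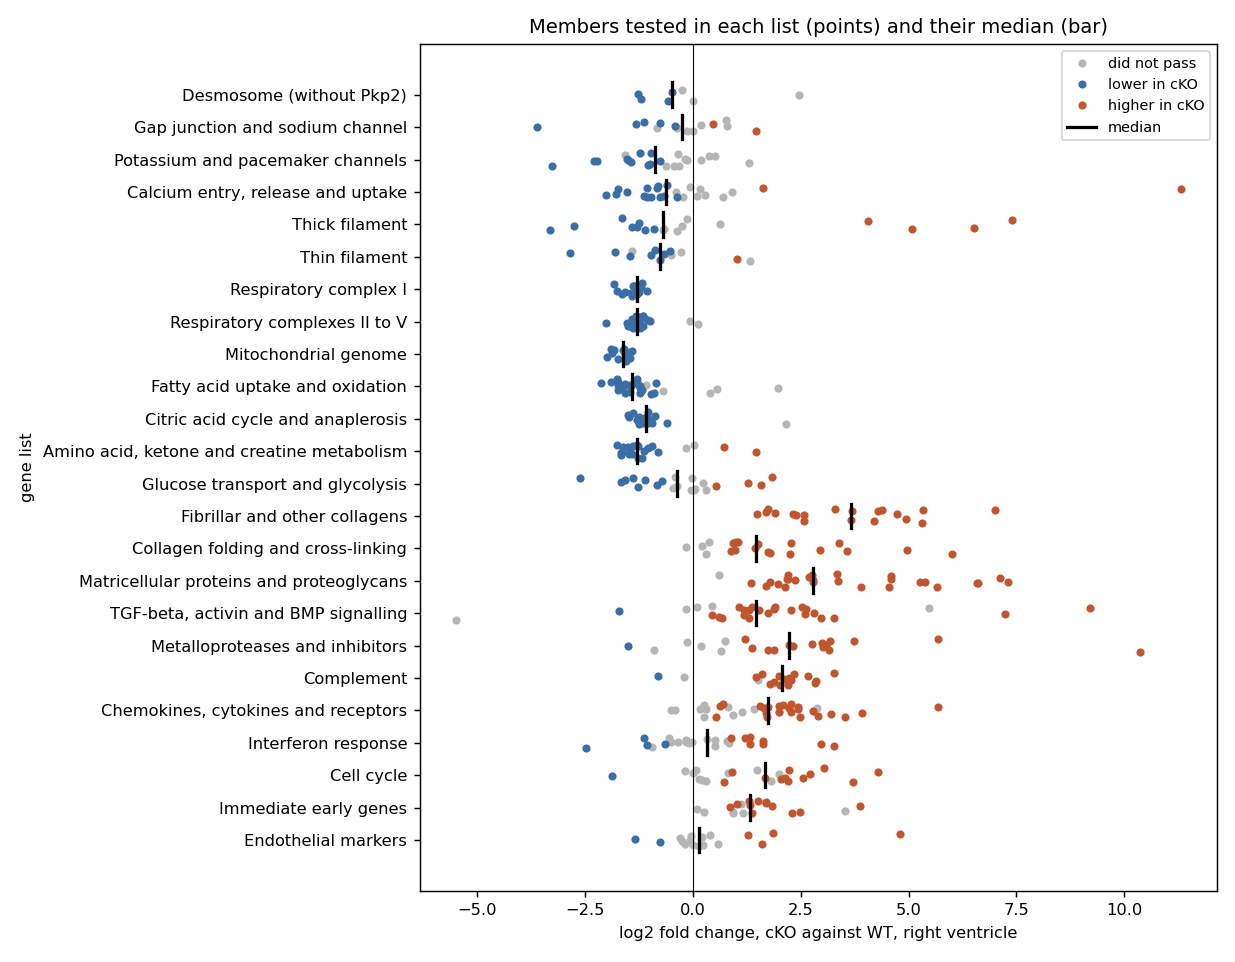
Log2 difference of cKO over WT (horizontal axis) for every tested member of 24 gene lists (vertical axis), 1 point per gene, colored by its call, with the list's median as a bar, where members with 0 counts in a whole group have a fitted value that depends on the prior count. The complex I list lies wholly below zero with a median of -1.29 and the collagen list wholly above it with a median of 3.66.

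The extracellular matrix moved in the other direction. All 19 collagen genes rose, with a median of 3.66, beside 19.8% higher calls over all genes. The fibrillar collagens of scar were among them. Col1a1 stood at 61.4, 61.8 and 44.6 CPM in WT and at 2225, 836, 1171 and 2685 CPM in cKO (4.95 ± 0.65, adjusted p = 0.000163), and Col3a1 at 137, 123 and 105 CPM in WT and at 3881, 1532, 1838 and 5668 CPM in cKO (4.73 ± 0.60). Every cKO library was more than an order of magnitude above every WT library in Col1a1. The beaded-filament collagen genes Col6a1 and Col6a2 rose by 2.59 ± 0.21 and 2.39 ± 0.21. Col8a2, a short-chain collagen, was close to absent in WT (0.344, 0 and 0.165 CPM) and stood at 32.7, 14.3, 23.2 and 17.9 CPM in cKO, and its partner Col8a1 rose from 17.8 ± 6.30 to 328 ± 79.9 CPM. The basement membrane collagen genes Col4a1 and Col15a1 rose by 1.91 ± 0.27 and 1.498 ± 0.30.

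Of 20 genes for collagen folding and cross-linking, 16 rose. Lysyl oxidase, Lox, which starts the cross-links, stood at 5.41, 4.39 and 1.69 CPM in WT and at 231, 177, 185 and 379.7 CPM in cKO (6.00 ± 0.72), and its relatives Loxl1 and Loxl3 rose by 2.95 ± 0.24 and 3.39 ± 0.28. Adamts2, which trims the ends of procollagen, rose by 3.58 ± 0.35. Serpinh1, the collagen chaperone of the endoplasmic reticulum, stood at 97.7, 111 and 106.6 CPM in WT and at 187, 46.1, 141 and 174 CPM in cKO and was not called (adjusted p = 0.446), although it is needed for the folding of the same collagens.

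Of 27 matricellular and proteoglycan genes, 26 rose, Nov alone not being called (0.61). Several of the largest rises of the comparison were in this group. Fmod, fibromodulin, a collagen-binding proteoglycan, stood at 0.492, 0.317 and 0.741 CPM in WT and at 94.4, 80.0, 70.0 and 91.2 CPM in cKO (7.32 ± 0.35). Comp, cartilage oligomeric matrix protein, stood at 0.492, 1.31 and 1.32 CPM in WT and at 92.8, 139.8, 188 and 165 CPM in cKO (7.11 ± 0.38), and Cilp, cartilage intermediate layer protein, at 7.72, 4.30 and 2.55 CPM in WT and at 408, 385, 435 and 638 CPM in cKO (6.59 ± 0.50). The WT libraries held little of any of the 3. Periostin, Postn, rose from 32.1 ± 9.38 to 754 ± 274 CPM (4.55 ± 0.67), and Ctgf, connective tissue growth factor, from 55.2 ± 7.20 to 566 ± 155 CPM (3.36 ± 0.26). Spp1, osteopontin, a product of macrophages and matrix cells, stood at 24.6, 4.65, 8.29 and 17.6 CPM in cKO and at 0.246, 0.0453 and 0.124 CPM in WT. Elastic fibre genes rose in 14 of 17 cases. Eln, elastin, rose by 4.74 ± 0.54, Mfap4 by 5.07 ± 0.34 and Fbn2, a fibrillin of development, by 4.41 ± 0.44. Ltbp2, which binds fibrillin, went from 2.95, 0.950 and 1.03 CPM to 224, 181, 310.3 and 267 CPM (7.24 ± 0.63), whereas Ltbp1, which holds latent TGF-beta in the matrix, stood at 95.5 ± 15.9 CPM in WT and 75.5 ± 13.9 CPM in cKO and was not called.

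**Figure D4:**
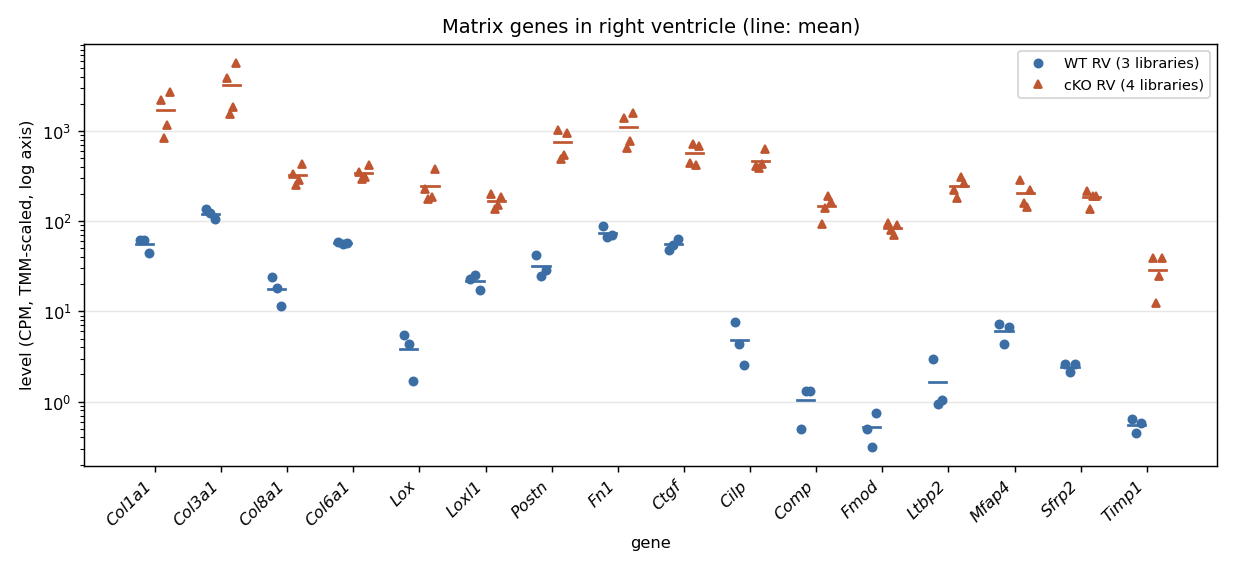
Levels (CPM, log axis) of 16 collagen, cross-linking, matricellular, elastic fibre, Wnt modulator and protease inhibitor genes (horizontal axis) in each of the 3 WT and 4 cKO RV libraries, 1 point per library with the group mean as a line. Col1a1, Lox, Cilp and Comp of cKO lie above WT with no overlap, and Comp rises from about 1 CPM in WT to a mean of 147 CPM.

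Ligands, receptors and targets of TGF-beta rose together. 22 of 28 genes of the pathway were higher and 1 lower, with a median of 1.46, or 1.34 with the 2 genes at 0 counts in 1 group set at the bound that 3 counts allow. Of the TGF-beta ligands, Tgfb3 rose from 19.8 ± 0.896 to 114 ± 28.4 CPM (2.53 ± 0.23), Tgfb2 by 1.19 ± 0.14 and Tgfb1 by 1.08 ± 0.20. The receptors Tgfbr1 and Tgfbr2 rose by 1.91 ± 0.15 and 1.38 ± 0.10. The targets Smad7 and Skil, feedback inhibitors of the pathway, rose by 1.31 ± 0.24 and 1.74 ± 0.14. Inhba, an activin subunit, stood at 2.31, 1.67 and 1.94 CPM in WT and at 10.8, 8.44, 13.0 and 5.87 CPM in cKO. Bmp7, whose product opposes TGF-beta in fibrosis models, fell from 1.77 ± 0.508 to 0.546 ± 0.461 CPM, a call that was lost in 5 of the 7 fits that left out 1 library. Among secreted Wnt modulators 10 of 21 rose and 2 fell (median 1.46, or 0.99 with Sfrp4 at its bound). The frizzled-related proteins Sfrp1, Sfrp2 and Frzb, which bind Wnt ligands outside the cell, stood at 213, 113, 196 and 418, at 215, 137, 191 and 192 and at 61.8, 48.9, 49.4 and 60.8 CPM in cKO and at no more than 22.6, 2.61 and 3.87 CPM in WT. Wif1, another Wnt inhibitor, and the ligand Wnt5a fell by 1.55 ± 0.40 and 0.96 ± 0.12.

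Metalloproteases and their inhibitors rose in 15 of 21 cases. Mmp2, gelatinase A, and its membrane activator Mmp14 rose by 3.00 ± 0.22 and 2.77 ± 0.36. Timp1, the inducible inhibitor, stood at 0.640, 0.453 and 0.577 CPM in WT and at 39.2, 12.4, 24.8 and 38.9 CPM in cKO (5.69 ± 0.67), and Timp2 rose by 1.88 ± 0.14. Mmp15 fell by 1.51 ± 0.15. Mmp9, gelatinase B, stood at 1.97, 1.90 and 3.79 CPM in WT and at 2.84, 0.775, 1.07 and 7.07 CPM in cKO and was not called. Adamts4, a proteoglycan-degrading enzyme, had 0 counts in all WT libraries and stood at 10.7, 0.431, 0 and 14.2 CPM in cKO. Of the renin-angiotensin and endothelin genes, Ace, which makes angiotensin II, and the ligand Edn1 rose by 2.05 ± 0.33 and 1.60 ± 0.30, while the receptor Agtr1a and the mineralocorticoid receptor Nr3c2 fell by 1.85 ± 0.22 and 1.34 ± 0.14.

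The matrix-degrading Mmp genes are textbook targets of AP-1, a dimer of Fos and Jun proteins that binds TGANTCA (the same letters on either strand), and several genes of that family were called higher. Fos stood at 4.97, 7.74 and 2.97 CPM in WT and at 51.0, 15.6, 7.22 and 29.3 CPM in cKO (2.31 ± 0.68), and its call was lost without WT 636, WT 647 or cKO 177 (adjusted p = 0.059, 0.0793 and 0.0523). Junb rose by 1.85 ± 0.40, Fosl2 by 1.70 ± 0.40 and Jund by 0.86 ± 0.18, while Jun stood at 61.9 ± 20.1 CPM in WT and 74.8 ± 21.5 CPM in cKO and was not called. The motif was therefore searched in the 300 bases around each gene start in RefSeq (250 before and 50 after, GRCm38.p6), which could be matched for 11431 of the 17307 genes tested. It was present in 771 of these windows (6.74%), in 206 of 2451 genes called higher (8.4%), in 123 of 2177 called lower (5.65%) and in 442 of 6803 not called (6.5%). Of the matrix lists it was in 6 of 74 windows (8.11%), and of the energy lists in 3 of 95 (3.16%). The stretches around the motif in 4 matrix genes are shown, with the motif in capitals, because they hold genes of this group with and without a rise. Of the matrix genes with the motif, Ecm1 (2.20, called higher) and Adam19 (0.66, not called) are not shown.
Mmp3 (chr9:7445751-7445807, plus strand): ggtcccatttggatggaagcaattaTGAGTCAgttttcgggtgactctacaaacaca
Mmp12 (chr9:7347305-7347361, plus strand): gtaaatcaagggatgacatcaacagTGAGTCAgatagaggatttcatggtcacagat
Mmp13 (chr9:7272454-7272510, plus strand): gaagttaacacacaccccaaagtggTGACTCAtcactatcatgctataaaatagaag
Col6a1 (chr10:76726103-76726159, minus strand): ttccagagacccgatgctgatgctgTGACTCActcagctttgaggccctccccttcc
The motif begins 46 bases before the start of Mmp3, 44 before that of Mmp12, 35 before that of Mmp13 and 90 before that of Col6a1. Mmp3, stromelysin, rose from 2.07 ± 0.566 to 27.8 ± 23.8 CPM (3.74 ± 0.59) and Mmp12, the macrophage elastase, from 0.249 ± 0.105 to 2.17 ± 1.27 CPM (3.09 ± 0.56). Mmp13, an interstitial collagenase with the motif at a like distance, stood at 0.984, 0.453 and 0.453 CPM in WT and at 0.444, 0.129, 0.712 and 0.0386 CPM in cKO and was not called (-0.89 ± 0.87). A match is only a run of letters, and binding was not measured.

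Markers of other cell types moved with these genes. Of the resting fibroblast list 13 of 15 rose (median 1.55), among them Pdgfra, the receptor that defines cardiac fibroblasts (61.0, 54.9 and 65.4 CPM in WT and 187, 196, 152 and 205 CPM in cKO, 1.61 ± 0.14), and Tcf21, their transcription factor (1.55 ± 0.29). Of the activated fibroblast list 16 of 18 rose (median 3.00). Its most extreme member was Cthrc1, a secreted protein of activated cardiac fibroblasts, which had the largest rise under the rule for naming genes, from 0.0492, 0 and 0.0412 CPM to 18.0, 5.43, 6.64 and 12.7 CPM (8.26 ± 1.45). The exception was Lrrc15, a membrane protein often used to mark myofibroblasts, which stood at 22.9, 27.2 and 34.3 CPM in WT and at 1.13, 2.63, 0.939 and 2.24 CPM in cKO (-4.03 ± 0.32). Acta2, smooth muscle actin, stood at 63.8, 46.2 and 101 CPM in WT and at 103, 105, 86.9 and 114 CPM in cKO and was not called (adjusted p = 0.123), although Tagln, a companion gene of contractile cells, rose by 1.05 ± 0.16. The summed level of the resting fibroblast markers was 1336 to 1682 CPM in WT and 4283 to 6888 CPM in cKO, and none of its members was at 0 in WT. That of the cardiomyocyte markers was 36253 to 47849 CPM in WT and 11878 to 28702 CPM in cKO, with 10 of 11 lower. The part of a changed mixture of cells in the matrix and muscle results was not tested.

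Macrophage genes rose in 17 of 21 cases (median 2.34), and their summed level was 176 to 208 CPM in WT and 554 to 969 CPM in cKO. Emr1, which encodes the F4/80 antigen, stood at 7.18, 9.55 and 7.70 CPM in WT and at 56.6, 16.1, 46.0 and 36.5 CPM in cKO (2.25 ± 0.36), and Csf1r, the receptor on which macrophages depend, at 27.8, 33.8 and 37.5 CPM in WT and at 125, 82.2, 107.5 and 113 CPM in cKO (1.69 ± 0.16). Ccr2, the receptor of recruited monocytes, stood at 7.13, 4.30 and 7.04 CPM in WT and at 74.9, 7.67, 63.1 and 24.1 CPM in cKO, with 177 and 257 high and 180 close to WT. Lgals3 and Trem2, which mark macrophages that take up debris and lipid, rose by 4.36 ± 0.39 and 3.25 ± 0.57. Timd4, a marker of resident cardiac macrophages, fell from 2.03 ± 0.704 to 0.491 ± 0.208 CPM (-2.04 ± 0.42), while Folr2, another resident marker, stood at 3.97 ± 1.22 CPM in WT and 3.60 ± 2.06 CPM in cKO. Complement followed, with 15 of 18 genes higher, among them C1qa (2.28 ± 0.21), C4b (2.87 ± 0.42) and C3 (2.02 ± 0.32), and only Cd59a, a membrane inhibitor of the pathway, lower (-0.80 ± 0.19).

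Among chemokines, cytokines and their receptors 23 of 35 rose and none fell (median 1.74, or 1.71 with Ccl4 at its bound). Receptors of innate sensing Tlr7 and Tlr8 rose by 2.48 ± 0.24 and 3.21 ± 0.34, Osmr, the oncostatin M receptor, by 1.57 ± 0.19 and Il1r1 by 2.01 ± 0.28. Ligands of acute inflammation were low in most libraries and not called. Il1b stood at 0.640, 0.543 and 0.494 CPM in WT and at 13.3, 0.129, 1.88 and 1.08 CPM in cKO, Tnf at 0.904 ± 0.0801 CPM in WT and 0.670 ± 0.687 CPM in cKO and Ccl2 at 1.03 ± 0.414 CPM in WT and 1.25 ± 1.12 CPM in cKO, and Il6 and Il11 did not pass the filter on low counts. Of 16 genes of antigen presentation by MHC molecules 5 rose and none fell, beside 19.8% higher calls over all genes. Among the risers were Cd74 (1.73 ± 0.31), H2-Aa (1.90 ± 0.36) and H2-Ab1 (1.86 ± 0.33) of class II and H2-D1 (0.71 ± 0.14) of class I, whose reads may be shared with closely related genes. T cell markers were detected at low levels. Cd3e stood at 0.344, 0.498 and 0.371 CPM in WT and at 3.04, 1.16, 1.65 and 0.927 CPM in cKO and Cd4 at 1.08, 0.724 and 0.165 CPM in WT and at 3.25, 1.25, 1.91 and 4.17 CPM in cKO, and 8 of 14 lymphocyte markers rose.

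Of 25 interferon-stimulated genes tested 8 rose and 4 fell, beside 19.8% higher and 17.6% lower calls over all genes, so that the share of falls was no higher than that of all genes. Ifit3, Irf7 and Oasl2, which respond to type I interferon, rose by 1.62 ± 0.30, 1.34 ± 0.31 and 1.33 ± 0.36, and Mx1 went from 0.836, 0.0453 and 0.329 CPM to 3.31, 1.85, 3.76 and 6.60 CPM. The GTPases of the response to interferon gamma Tgtp1, Tgtp2, Igtp and Iigp1 fell by 2.47 ± 0.46, 1.12 ± 0.31, 1.07 ± 0.33 and 0.65 ± 0.21, where Tgtp1 and Tgtp2 are near-identical copies that may share reads. The calls of Igtp and Iigp1 were each lost in 4 of the 7 fits that left out 1 library, and Tgtp2 and Iigp1 had positive values in deposited TPM (0.09 and 0.19).

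Stress genes moved in parts. In the integrated stress response, in which Atf4 induces amino acid and rescue genes, 11 of 26 rose and 3 fell. Atf4 rose by 0.59 ± 0.13, Nupr1 by 2.95 ± 0.25 and the amino acid transporter subunit Slc3a2 by 1.04 ± 0.19, while the targets Ddit3 and Trib3 were not called (-0.29 and -0.07). Against most of the list, Vldlr, a lipoprotein receptor, fell by 1.27 ± 0.19, the tryptophan tRNA ligase Wars by 0.58 ± 0.12 and the mitochondrial protease Lonp1 by 0.42 ± 0.15, the latter pair positive in deposited TPM (0.32 and 0.40). Of serine and mitochondrial one-carbon genes, Phgdh, the first enzyme of serine synthesis, Mthfd2 and Pycr1 rose by 2.02 ± 0.45, 2.56 ± 0.32 and 2.65 ± 0.43 from low WT levels (0.524, 1.09 and 0.6005 CPM), and the cytosolic enzymes Mthfd1 and Shmt1 fell by 0.70 ± 0.12 and 0.78 ± 0.23, both slightly positive in deposited TPM (0.15 and 0.01), as was Psph (0.04), which ends serine synthesis and fell by 0.88 ± 0.30. Cth, which makes cysteine, fell from 1.26 ± 0.372 to 0.272 ± 0.125 CPM. Of 19 heat shock and unfolded protein genes 7 fell and 1 rose (median -0.22), beside 17.6% lower calls over all genes. Those that fell included the mitochondrial chaperones Hspd1, by 1.44 ± 0.15, Hspe1, by 1.11 ± 0.20, and Hspa9, by 1.11 ± 0.17, and the small heat shock proteins of muscle Hspb6 and Hspb8 (-1.21 and -1.13), whereas the inducible Hspa1a stood at 2.45 ± 2.22 CPM in WT and 3.03 ± 1.26 CPM in cKO and Pdia4, of the endoplasmic reticulum, rose by 0.55 ± 0.19.

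Cdkn1a, which encodes the cell cycle inhibitor p21, stood at 9.49, 6.24 and 4.37 CPM in WT and at 36.0, 147, 36.0 and 228 CPM in cKO (4.06 ± 0.70), with 180 and 264 several times as high as 177 and 257. Phlda3 and Trp53inp1 rose by 1.87 ± 0.28 and 1.88 ± 0.40, Mdm2 was not called (-0.19), and Ccng1, another p53 target, fell by 1.03 ± 0.21. In all, 8 of 19 p53 and apoptosis genes rose. Cell cycle genes rose in 12 of 23 cases at low levels. Mki67, which marks cycling cells, stood at 11.6, 6.199 and 5.68 CPM in WT and at 32.7, 16.2, 17.0 and 78.7 CPM in cKO, with cKO 264 highest, and its call was lost without WT 637 or WT 647 (adjusted p = 0.0564 and 0.0589). Plk1 went from 0.0492, 0.136 and 0.165 CPM to 2.25, 0.905, 0.971 and 2.28 CPM. Cenpf, a kinetochore gene of dividing cells that had 91.7 CPM in WT, fell by 1.86 ± 0.30. Beside the AP-1 genes, the immediate early genes Egr2 and Myc rose by 3.88 ± 0.49 and 2.49 ± 0.45, among 12 of 19. Of 17 circadian genes 3 rose, a share below the 19.8% of all genes, and 6 fell. Arntl and Npas2, activators of the oscillator, rose by 1.16 ± 0.29 and 0.97 ± 0.30 and Nfil3, a repressor, by 1.99 ± 0.57, and the activator-driven genes Dbp, Hlf, Tef and Nr1d2 fell by 1.59 ± 0.40, 1.59 ± 0.24, 0.84 ± 0.20 and 0.89 ± 0.16. The hour of collection is not given in the sources used here.

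The remaining cell types changed less evenly. Of 17 endothelial markers 4 rose and 2 fell (median 0.15), near or below the shares of all genes, Pecam1 and Cdh5, which define the type, standing at 157 ± 26.8 CPM in WT and 182 ± 30.2 CPM in cKO and at 292 ± 65.8 CPM in WT and 280.1 ± 38.0 CPM in cKO. Vwf, an endothelial clotting factor, rose from 99.2 ± 25.9 to 360.2 ± 109.5 CPM and Ackr1, a marker of venules, from 0.0465 ± 0.0494 to 1.40 ± 0.577 CPM, whereas the water channel Aqp1 fell by 1.34 ± 0.26 and Kdr, the main receptor of vascular endothelial growth factor, by 0.77 ± 0.24 (0.11 in deposited TPM). Lymphatic genes rose in 6 of 7 cases, among them Flt4 (1.39 ± 0.17), the lymphatic growth factor receptor, and Lyve1 (2.54 ± 0.40), which resident macrophages also carry. The member that fell was Prox1 (-1.09 ± 0.14), the lymphatic factor given above with the cardiac transcription factors. Of smooth muscle and pericyte markers 7 of 14 rose, Pdgfrb by 1.01 ± 0.15 and Notch3 by 0.55 ± 0.14, and Smtn, smoothelin, fell by 0.46 ± 0.12 (0.07 in deposited TPM). Of 9 epicardial markers 4 rose and none fell, among them Wt1 (1.40 ± 0.32), Tbx18 (1.43 ± 0.16) and Aldh1a2 (1.75 ± 0.45). Adipocyte genes were mostly low. Adipoq, Plin1 and Lep, which define fat cells, did not pass the filter on low counts. Adipoq stood at 0 CPM in all WT libraries and at 0, 3.10, 0.0971 and 0.116 CPM in cKO. Lep was at 0 CPM in WT and at 0, 0.560, 0.0971 and 0 CPM in cKO, and Plin1 at 0 CPM in all 7 libraries. Cfd stood at 0, 0 and 0.124 CPM in WT and at 0, 15.9, 1.39 and 0 CPM in cKO, so that cKO 180 was highest in Adipoq, Lep and Cfd. Fabp4, shared with capillary endothelium, stood at 211 ± 17.8 CPM in WT and 235 ± 128 CPM in cKO, and of 8 genes tested only Scd1, a fatty acid desaturase, was called (1.31 ± 0.18). Acan and Sox9, textbook genes of cartilage, rose to 2.36, 0.862, 0.356 and 0.927 and to 26.5, 9.05, 30.8 and 6.76 CPM in cKO, while Col2a1 did not pass the filter. Pmp22 and Mbp, genes of Schwann cells, rose by 2.09 ± 0.18 and 1.05 ± 0.18.

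Of the largest rises not yet described, Sprr1a (chromosome 3, 92390424 to 92393208, minus strand), a small proline-rich protein of stressed cardiomyocytes and epithelia, stood at 0.0984, 0.0905 and 0 CPM in WT and at 29.0, 15.98, 9.94 and 16.8 CPM in cKO (8.11 ± 1.34). Ptx3, a pattern recognition pentraxin, stood at 0.0984, 0.407 and 0.124 CPM in WT and at 9.46, 4.52, 2.56 and 37.3 CPM in cKO (5.97 ± 1.03) and Pak3, a kinase mainly known from neurons, at 7.62, 9.65, 8.68 and 9.39 CPM in cKO against at most 0.206 CPM in WT. Every cKO library of these genes was above every WT library, as the rule for naming them required. Serpina3n, an inhibitor of serine proteases from a family of close copies among which reads may be split, stood at 9.84, 6.97 and 4.49 CPM in WT and at 191, 195, 196 and 1413 CPM in cKO, with cKO 264 far above the other 3. Of the largest falls, Itgb6 (chromosome 2, 60428636 to 60553035, minus strand), the beta chain of the integrin that releases active TGF-beta, stood at 41.4, 45.6 and 50.5 CPM in WT and at 2.46, 1.64, 4.14 and 1.70 CPM in cKO (-4.19 ± 0.27). Ces1d, a lipid-hydrolysing carboxylesterase of another family of copies, fell from 64.1 ± 22.0 to 3.97 ± 1.93 CPM and Slc22a3, a transporter of organic cations, from 11.6 ± 1.53 to 1.44 ± 1.08 CPM. The sodium-proton exchanger Slc9a2 fell by 2.87 ± 0.24, Cdh23, a cadherin, by 2.79 ± 0.22, Dhrs7c, a reductase of the sarcoplasmic reticulum, by 2.79 ± 0.24, Efnb3, a ligand of Eph receptors, by 3.10 ± 0.42 and Lingo3 by 3.21 ± 0.29.

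The same comparison in the left ventricle (LV) of animals of the same groups called 5875 of 16410 genes (35.8%), and it shares animals with the RV comparison, so that the 2 sets of values are given side by side. The median difference of collagens was 3.66 in RV and 2.63 in LV, and that of complex I -1.29 and -0.80. Pkp2 differed by -1.75 in RV and -1.39 ± 0.15 in LV. Myh7 stood 4.05 above WT in RV and 3.56 ± 0.48 in LV, Nppa 4.70 and 3.06 ± 0.51, and Comp 7.11 and 6.46 ± 0.78. Other genes had the larger value in LV. Spp1 stood at 6.62 in RV and 10.2 ± 1.74 in LV, Cthrc1 at 8.26 and 9.10 ± 1.45 and Fhl1 at 0.74 and 1.77 ± 0.34. All these genes were chosen with their values known, and none of them was called in the direct test that follows. A direct test of the difference between the ventricles, with the animal as a block, called 2 of 17981 genes (0.0111%), and 1874 had an unadjusted p under 0.05. The first was Col6a3 (chromosome 1, 90693645 to 90771780, minus strand), a chain of the beaded-filament collagen, which stood at 57.4, 47.3 and 64.0 CPM in WT and at 414, 232, 296 and 389.9 CPM in cKO in RV and rose by 2.57 ± 0.29 there and by 1.49 ± 0.24 in LV, a difference of 1.08 ± 0.13 (adjusted p = 0.024). The second was Atf5 (chromosome 7, 44461680 to 44466082, minus strand), a factor of the mitochondrial and amino acid stress response, at 29.1, 25.9 and 21.4 CPM in WT and at 45.03, 45.8, 72.2 and 37.8 CPM in cKO in RV, which rose by 0.98 ± 0.21 there and stood 0.10 ± 0.18 above WT in LV, a difference of 0.95 ± 0.11 (adjusted p = 0.024). Both calls were absent without the block, and no gene was called when WT 636, WT 637 or cKO 180 was left out, against 40 without cKO 177, 13 without cKO 257 and 1 without WT 647 or cKO 264.

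**Figure D5:**
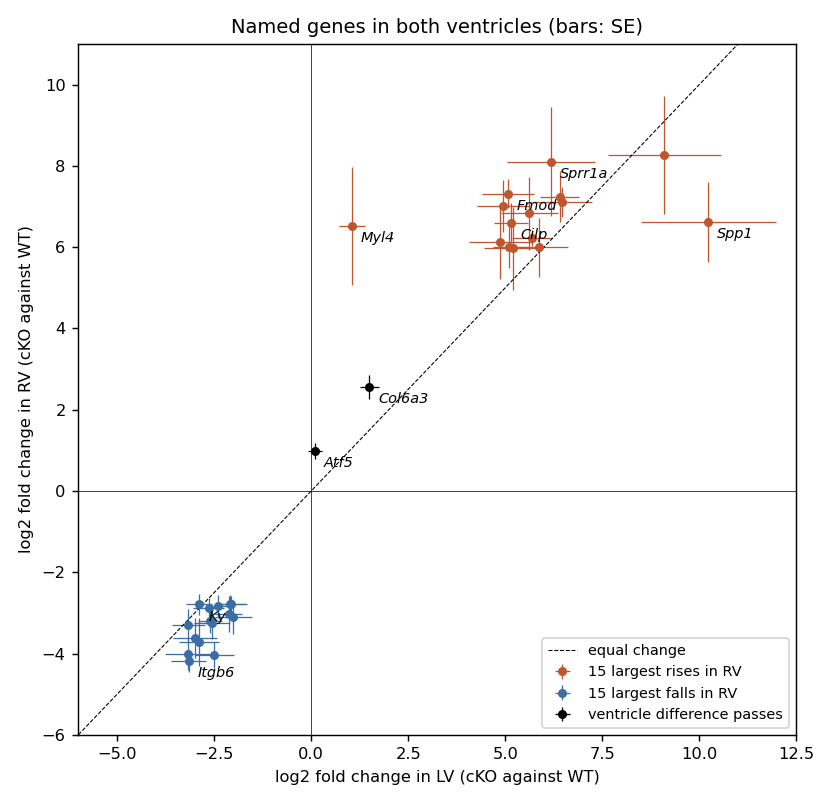
Log2 difference of cKO over WT with its standard error in RV (vertical axis) against LV (horizontal axis) for the 15 largest rises, the 15 largest falls and the 2 genes called in the test between ventricles, with a dashed line of equal change. The rises and falls were picked by their size in RV, which favors larger values there. Col6a3 stands at 2.57 in RV and 1.49 ± 0.24 in LV, and Atf5 at 0.98 and 0.10 ± 0.18.

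The 4 cKO libraries were not alike. The first principal component of the 2000 most variable genes took 68.2% of the variance and parted the groups, and the second took 9.3% and ordered the cKO libraries from 177 and 257 to 264 and 180. The order of the cKO libraries differed between muscle genes. Library 177 was lowest and 180 highest in Myh6 (3250.2, 10487, 6601 and 6099 CPM), Atp2a2 (2181, 5660.1, 4126 and 3403 CPM) and Dsg2 (42.7, 99.0, 54.2 and 58.7 CPM), whereas Gja1 was lowest in 180 and highest in 257 (366, 227, 379 and 250.0 CPM) and Mylk4 was lowest in 257 (17.3, 38.9, 9.65 and 16.9 CPM). The 5 genes with the largest spread within the cKO group, among those with a mean of at least 5 CPM, were Xist, Ddx3y and Uty, which follow the sex of the animals, Rpl10-ps3 and Pi4ka. Rpl10-ps3, a ribosomal protein pseudogene by its symbol but protein-coding in the annotation used, had 0, 0, 114 and 0 CPM in cKO, and its reads may belong to a parent gene. Pi4ka, a lipid kinase, stood at 49.2, 22.0 and 35.3 CPM in WT and at 51.5, 0, 23.0 and 0 CPM in cKO. With sex as a covariate 6106 genes were called. A leave-out of each library in turn called 5109 to 6401 genes.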

How the data were processed

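Per the labels, RNA was taken from right and left ventricles and sequenced in bulk, 1 library per ventricle and animal. The authors deposited estimated counts, TPM and effective transcript lengths per gene symbol, made with Salmon 1.8.0 against mouse transcripts with the human PKP2 transgene, and the table was used as deposited. The deposited estimated counts were rounded to whole numbers, and a row without a symbol (at most 0.00097% of counts) was left out. The deposited TPM values were used only in alternatives, as log2(TPM + 1) or with a pseudocount of 0.1, and the listed genes sum to 77.9 to 90.1% of the full TPM scale. The deposited effective lengths, another column of the table, served only as offsets in an alternative. Of 39152 symbols, 33105 had a position in GENCODE M39.

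Genes with low counts were removed (filterByExpr), libraries scaled by TMM, and edgeR 4.0.16 (R 4.3.3, limma 3.58.1) fitted by quasi-likelihood to all 12 RV libraries in 4 groups, so that the vector-treated animals contributed to the estimate of spread. Benjamini-Hochberg adjustment ran over all genes tested, at 0.05. The LV fit used 16 libraries, and the comparison of ventricles used 24 libraries of 12 animals with the animal as a block. Single values were compared by an exact permutation over 35 assignments. Replicates were separate animals. The closest pair within a group differed by far more than sampling noise (chi-square per degree of freedom 48.3). Depth limits genes with few reads, and 0 counts allow up to 3. The main fit of cKO against WT in RV was tested on counts simulated for the 12 RV libraries. A small part of the genes was changed there, with rises and falls balanced. It therefore does not test how the scaling handles a changed composition such as that of the mitochondrial transcripts. The LV fit, the comparison of ventricles and the alternatives were not tested in this way.

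The 58 gene lists (38 of pathways, 20 of cell types, 943 genes) and the rules were chosen with earlier results of these data known, and junction, channel, fibrosis and sarcomere genes are also ones that the study chose to describe from these animals. Genes named were Pkp2, the 15 largest rises and 15 largest falls among called protein-coding genes (mean over the 7 libraries 5 CPM or higher, groups not overlapping), the 10 nuclear genes highest by TPM in WT, up to 5 members of each list by adjusted p, members against their list's direction and members that define it, genes that differed between ventricles, and the 5 with the most spread in cKO. Other list members were chosen after their values were seen, and a few genes that the rules name are not reported here. Alternatives were DESeq2 1.42.0, RLE scaling, no filter, only the 7 libraries, sex, length offsets, TPM, protein-coding nuclear genes and leaving out libraries. Promoter windows came from RefSeq (GRCm38.p6).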

Additional observations from a re-analysis of the deposited data

Results flagged for a closer look

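Of 312 levels and library measures tested within the 4 cKO RV libraries, 18 had 1 library far from the other 3 by Dixon's test, where chance alone flags about 1 in 20, a share close to the one found. The genes named for their spread in these same libraries were among those tested. Of them Rpl10-ps3 was flagged, and its flag is no separate evidence. Library 264 stood apart in 6 genes. Its level of Serpina3n was 1413 CPM, of Mmp3 63.1 CPM, of Nfil3 41.8 CPM, of H2-D1 231 CPM, of Shmt1 7.18 CPM and of Psph 3.09 CPM. Library 177 stood apart in 6 genes. Its level of Il1b was 13.3 CPM, of Mdm2 33.4 CPM, of Hspb6 140.2 CPM, of Sirt3 3.21 CPM, of Efnb3 3.14 CPM and of Sfrp4 0.410 CPM, the only cKO library with any read of the latter gene. Library 257 stood apart in Bmp10 at 425 CPM, Rpl10-ps3 at 114 CPM, Acta1 at 45.003 CPM and Ddit3 at 9.58 CPM. Library 180 did so in Scd1 at 90.8 CPM and Cfd at 15.9 CPM.

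The effect of Pkp2 loss differed between the ventricles in 2 genes in the test with the animal as a block. The difference of RV minus LV was 1.08 for Col6a3 and 0.95 for Atf5 (adjusted p = 0.024 for each).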

How the results depend on the processing

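The count of called genes stayed within 1.5 times 6468 in all 18 alternatives, from 5109 without WT 637 to 9699 in deposited TPM. The direction of the calls did not. Higher calls numbered 9155 in log2(TPM + 1) as deposited, and lower calls 544 there, 1625 in log2(TPM + 1) of protein-coding nuclear genes and 1615 with a pseudocount of 0.1. Of the calls shared with the main comparison, 337 were opposite in deposited TPM, 1 in each protein-coding TPM fit and 0 elsewhere. The cause was not tested, and mitochondrial transcripts took a smaller share of cKO libraries in both units.

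In deposited TPM the following turned positive: Actc1 0.15, Ank2 0.023, Cacna1c 0.13, Cdh2 0.14, Cdh5 0.79, Corin 0.18, Cox8a 0.88, Ctnnb1 0.85, Dsp 0.32, Gata4 0.56, Hand2 0.76, Hey2 0.082, Iigp1 0.19, Jup 0.38, Kdr 0.11, Lonp1 0.40, Ltbp1 0.43, Mdm2 0.76, Mef2a 0.33, Mthfd1 0.15, Nkx2-5 0.66, Perp 0.56, Ppargc1a 0.0068, Psph 0.043, Shmt1 0.013, Smtn 0.074, Tgtp2 0.092, Tnnt2 0.032, Tpm1 0.047 and Wars 0.32. So did the medians of the desmosome (0.35), gap junction and sodium channel (0.34), calcium (0.18), thick filament (0.022), thin filament (0.047), Z-disc (0.26), adrenergic (0.28), energy regulator (0.12) and glycolysis (0.47) lists. The gap junction median was also positive in protein-coding TPM (0.061, or 0.25 with a pseudocount of 0.1). Relative to the shift of the median gene these list medians were negative. Leaving out 1 library at a time, the adipocyte median ran from -0.19 (without cKO 180) to 0.87 (without cKO 177), that of skeletal muscle from -0.78 (without WT 647) to 0.078 (without WT 636), and that of other organs from -1.01 (without cKO 264) to 5.88 (without WT 647). Without cKO 180 and 257 the adipocyte median was -0.45 and Tbx5 stood at -1.09.

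Of 309 genes named, between 5 and 23 lost their call in each fit that left out 1 library, and 33 did so in at least 1 of the 7 fits. Those lost in 4 or more were Adamts4, Bmp7, Gjc1, Igtp, Iigp1, Ilk, Lonp1, Pdia4, Psph, Sln, Tbx20 and Tnnt2. Corin, Fkbp1b, Fos, Kdr and Npas2 were lost in 3 fits. Bcl2l1, Hey2, Mki67, Mybphl, Myl7, Nfil3, Ryr2, Sox9 and Tgtp2 were lost in 2.

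The comparison of ventricles called 4 genes with limma voom, 0 without the animal as a block, and 0 to 40 when 1 animal was left out (0 without WT 636, WT 637 or cKO 180). No paired analysis was possible for cKO against WT in RV because no animal is in both groups. Depth limits genes under about 1 CPM, and arms of 3 and 4 animals limit all tests.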

Other observations

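A set of genes separated the 4 cKO libraries in a way that the atrial markers did not. It was chosen after the values were seen, and its values are given with no explanation. Ddit4, an inhibitor of mTORC1 signaling, stood at 8.61, 10.3 and 9.51 CPM in WT and 50.9, 155, 16.1 and 135 CPM in cKO, Bcl2l1, which encodes the survival protein BCL-XL, at 36.1, 32.3 and 30.7 CPM in WT and 57.3, 129, 30.8 and 128 CPM in cKO and Trp53inp1 at 29.2, 21.4 and 20.0 CPM in WT and 49.5, 118, 37.3 and 143 CPM in cKO. Pdk4, which restrains the entry of pyruvate into mitochondria, stood at 132, 514 and 132 CPM in WT and 77.6, 784, 75.3 and 598 CPM in cKO and was not called against WT (adjusted p = 0.627). Its cKO libraries lay on both sides of the WT libraries. Per1, a clock gene that also responds to stress hormones, stood at 61.8, 95.0 and 65.2 CPM in WT and 159, 269, 34.9 and 340.1 CPM in cKO and was not called (adjusted p = 0.0524), and Sox17, an endothelial factor, stood at 9.69, 9.10 and 6.22 CPM in WT and 12.4, 39.4, 11.9 and 38.3 CPM in cKO. In each of these genes, as in Cdkn1a, libraries 180 and 264 were above 177 and 257. Library 180 was a female and 264 a male animal, and in Myl7 these 2 libraries stood at opposite ends of the cKO group. The part of sex or of atrial tissue in this pattern was not tested.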
